A study of Mus musculus with 12 samples.

Results

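The genes of G2 and mitosis were examined in bulk RNA-seq of wild-type 3T3-L1 fibroblasts, an established line from mouse embryos. The members were 53 genes, of 56941 in the deposited count table, picked by name as regulators and machinery of mitosis. Cells were controls (called vehicle in the sample labels and untreated in the count table) or received IL-4 with IL-13 (IL-4/13), the inflammatory cytokines TNF-α, IL-17A and IL-1β (Inf), or both mixtures together (IL-4/13 + Inf). Each of these 4 conditions had 3 libraries of polyadenylated RNA, all with the same batch label. The model is a single cell line, and the labels do not say whether the libraries came from separate cultures, so the P values below measure only the spread between libraries.

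Progress from G2 into mitosis is driven by cyclin-dependent kinase 1 bound to the A and B cyclins, and many genes of this phase are transcribed together late in the cell cycle and shut off again when the cell leaves mitosis. In resting cells their promoters are held silent by the DREAM complex, and in cycling cells B-MYB (Mybl2) and FOXM1 activate them. Because their transcripts are abundant mainly in dividing cells, these genes are widely used to read proliferation from RNA.

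All 53 genes were expressed, with 194 to 7750 counts per gene and library in libraries of 13446005 to 20775769 counts. Levels are given as CPM, read counts relative to the library total after TMM scaling. Calls of upregulated and downregulated genes used the edgeR quasi-likelihood test over 14810 genes, with a p adjusted by Benjamini-Hochberg under 0.05 and a log2 difference of more than 0.25. The cells had the RNA of fibroblasts, with 12 fibroblast markers that summed to 12080 to 19975 CPM over all libraries. Each of the other marker lists below summed to at most 63.2 CPM. Among markers of other cell types, some genes had at most 3 counts in every library. They were 5 of 12 macrophage, 6 of 10 adipocyte, 5 of 8 epithelial and 2 of 6 endothelial genes, including Adgre1, Itgam, Adipoq, Plin1, Epcam and Kdr. The summed level of the macrophage markers was 21.2 to 24.7 CPM in control, 24.8 to 26.8 CPM with IL-4/13, 49.95 to 63.2 CPM with Inf and 47.7 to 53.7 CPM with both. The adipocyte markers summed to 40.8 to 58.7 CPM over all libraries, the epithelial markers to 3.86 to 6.37 CPM and the endothelial markers to 0.686 to 2.26 CPM. The fibroblast markers also differed by condition, with 17102 to 19975 CPM in control, 14667 to 15497 CPM with IL-4/13, 14148 to 15660 CPM with Inf and 12080 to 12463 CPM with both. The macrophage, adipocyte and fibroblast sums hide unequal members. Cd14 made up most of the macrophage sum, with a mean of 14.9 CPM in control and 44.7 CPM with Inf, whereas Csf1r had 3.54 and 2.64 CPM. Of the 12 macrophage markers, 6 had enough counts to be tested. With Inf, 3 were called higher: Mrc1 (3.51 ± 0.41, SE), Cd14 (1.58 ± 0.10) and Aif1 (1.57 ± 0.36). A marker nearly absent in control can enter the test through the libraries of another condition alone. The counts of tested and called markers are therefore a description only. Of the 12 fibroblast markers, 6 were called lower with Inf and 4 were called higher. The lower ones included Thy1 (log2 difference −0.72 ± 0.04, SE), Fn1 (−0.69 ± 0.15) and Col1a1 (−0.64 ± 0.09). The higher ones included Dcn (4.09 ± 0.05), Lum (3.31 ± 0.14) and Pdgfra (0.97 ± 0.07). Of the 4 tested adipocyte markers, 2 were called higher with Inf, Fabp4 (1.41 ± 0.12) and Lipe (0.75 ± 0.11). The other 2, Pparg (−1.22 ± 0.11) and Cebpa, were called lower. The part of these shifts in the results below was not tested.

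The genes of mitosis were lowest in Inf and highest in IL-4/13. Summed over the 53 genes, the level was 5005, 5221 and 5172 CPM in control, 5768, 5734 and 5651 CPM with IL-4/13, 4007, 4241 and 4069 CPM with Inf, and 4855, 4904 and 4828 CPM with both. No library of one condition reached the range of another. Relative to the control mean of 5133 ± 113 CPM (SD, n = 3), the mean was 111% with IL-4/13, 80.0% with Inf and 94.7% with both. Gene by gene, the mean was highest with IL-4/13 for 49 of the 53 genes and lowest with Inf for 50. For 37 genes, every Inf library lay below every IL-4/13 + Inf library, which in turn lay below every IL-4/13 library. In 10 genes all 4 conditions were separate, in the order Inf, both, control and IL-4/13: Anln, Birc5, Ccna2, Ccnb2, Cenpf, Ect2, Kif11, Kif20a, Melk and Tpx2. The shares of all tested genes with these ranks and orders were not counted, so these counts describe the 53 genes only. In these bulk libraries, fewer cells in G2 and mitosis and less of each transcript per cell cannot be told apart.

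**Figure D1:**
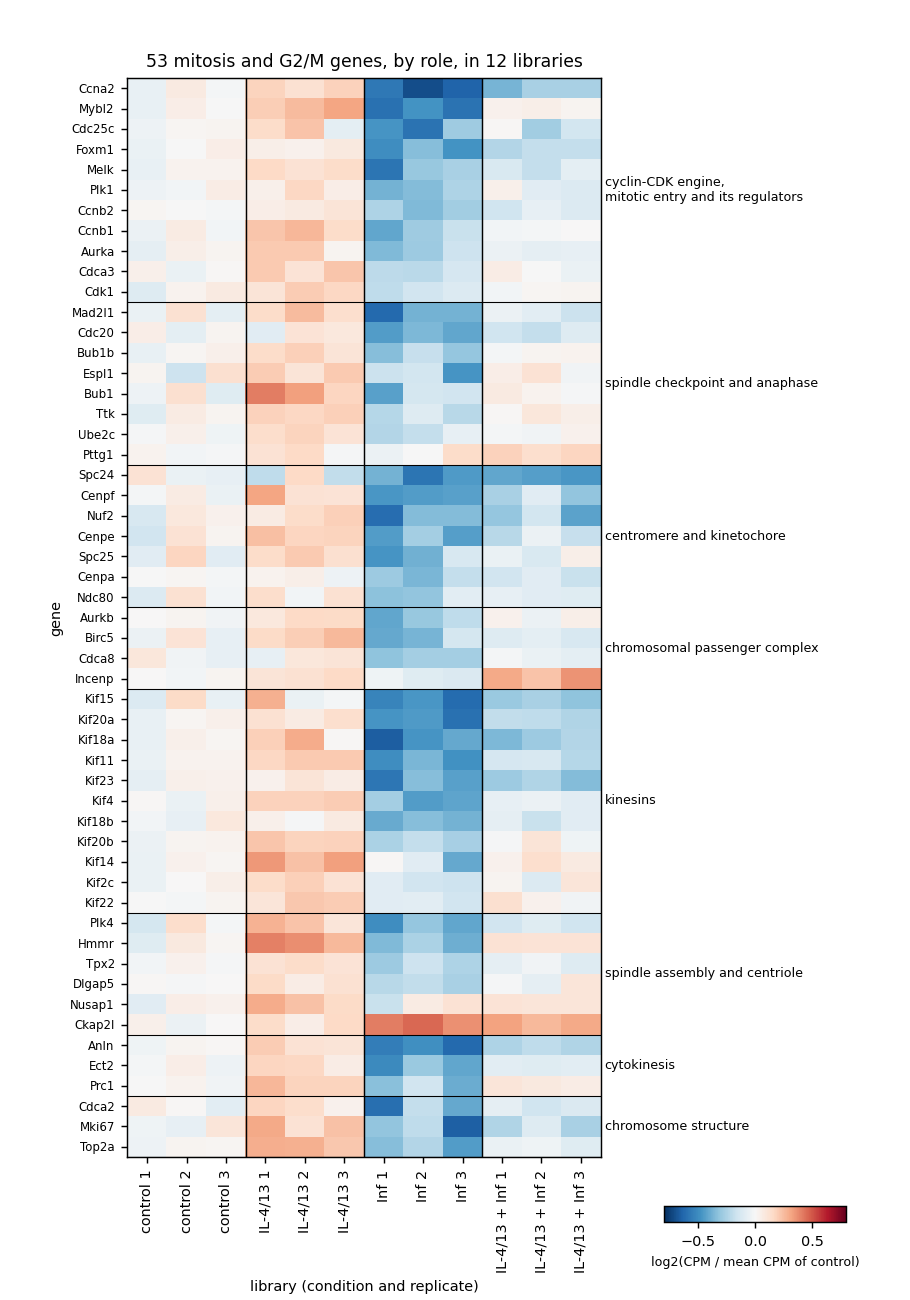
Heatmap of the 53 genes (rows, grouped by role) in the 12 libraries (columns), with color for the log2 ratio of CPM to the control mean of the same gene. The 3 Inf columns are blue for all but a few genes, Ckap2l is red in Inf and in both, and Incenp is red mainly with both.

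Per length, the genes covered a wide range of levels. In control, the median over the 53 genes was 21.3 CPM per kilobase of the longest transcript, from 2.67 for Kif14, a kinesin of the midbody, to 93.1 for Cdc20, the activator of the anaphase-promoting complex. Ccna2 (82.5 CPM per kilobase), Ube2c (62.2) and Anln (57.6) were also high on this scale. Within a condition the libraries were close, with a median coefficient of variation over the genes of 3.81% in control, 4.0% with IL-4/13, 6.19% with Inf and 3.05% with both. Some of these counts may include reads of processed copies. In the longest transcript, 42.1% of the 50-base stretches of Ccnb1, 23.8% of those of Mybl2, 11.4% of Cdc20, 6.84% of Plk1 and 5.48% of Plk4 also occur in transcripts of other genes, mostly pseudogenes, so the counts of these 5 are uncertain.

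The promoters of these genes share short motifs that the choice by name did not use. RefSeq windows from 250 bases before to 50 bases after the start site (GRCm38.p6) were matched for 43 of the 53 genes, in 45 windows. The cell cycle homology region (CHR), the element bound by DREAM and by the B-MYB complex, has the core TTTGAA. On either strand, TTTGAA lay in 33 of the 45 windows (73.3%), against 17.9% of all 32851 promoters, and within 50 bases of the start in 30 (66.7%), against 4.94%. The variant core TTCGAA was in 3 (6.67%, against 1.56%). CCAAT, the box bound by NF-Y, was in 31 (68.9%, against 37.4%), and at least 2 copies were in 22 (48.9%, against 11.7%). The E2F cores were rare in both, with TTTCCCGC in 0 (against 1.07%), TTTGGCGC in 2 (4.44%, against 0.514%) and TTTCGCGC in 1 (2.22%, against 0.323%). All motifs were counted on both strands, and TTTGAA and TTCGAA cannot be the same match. In 67 windows of other mitotic genes, TTTGAA was in 34 (50.7%) and near the start in 25 (37.3%), TTCGAA in 9 (13.4%) and CCAAT in 50 (74.6%). In 41 windows of DNA replication genes, TTTGAA near the start was found in 2 (4.88%), and TTTCGCGC in 8 (19.5%). A match is a description of the letters and does not show binding.

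The following stretches show, for 7 members whose TTTGAA core lies just before the start, the 150 bases that end 1 base before it, 5′ to 3′ on the gene's strand (RefSeq, GRCm38.p6), with TTTGAA and CCAAT on either strand in capitals:
Cdk1: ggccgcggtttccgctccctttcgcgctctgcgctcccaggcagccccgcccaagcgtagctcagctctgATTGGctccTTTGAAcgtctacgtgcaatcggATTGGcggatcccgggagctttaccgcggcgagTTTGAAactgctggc
Cdc20: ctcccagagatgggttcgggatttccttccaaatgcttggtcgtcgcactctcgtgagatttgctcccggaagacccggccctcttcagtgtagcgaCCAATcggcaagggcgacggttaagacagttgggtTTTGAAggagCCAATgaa
Ube2c: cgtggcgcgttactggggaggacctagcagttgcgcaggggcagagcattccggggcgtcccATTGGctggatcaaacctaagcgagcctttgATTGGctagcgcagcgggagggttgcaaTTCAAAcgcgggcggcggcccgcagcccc
Kif11: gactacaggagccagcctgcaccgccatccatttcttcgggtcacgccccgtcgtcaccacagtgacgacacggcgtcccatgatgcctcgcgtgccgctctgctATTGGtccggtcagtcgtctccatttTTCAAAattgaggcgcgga
Ckap2l: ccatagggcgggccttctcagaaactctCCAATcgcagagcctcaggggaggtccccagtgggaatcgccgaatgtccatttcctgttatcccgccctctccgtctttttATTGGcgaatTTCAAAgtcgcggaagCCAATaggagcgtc
Prc1: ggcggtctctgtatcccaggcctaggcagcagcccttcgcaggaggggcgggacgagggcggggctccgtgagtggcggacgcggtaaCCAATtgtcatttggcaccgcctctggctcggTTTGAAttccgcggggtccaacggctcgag
Top2a: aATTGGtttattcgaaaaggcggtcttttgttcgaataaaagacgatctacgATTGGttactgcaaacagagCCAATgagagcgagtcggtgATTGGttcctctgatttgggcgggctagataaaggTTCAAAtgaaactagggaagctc
They are printed because they show the arrangement most plainly, 1 or more CCAAT boxes upstream of a CHR core close to the start. It is seen in Ckap2l, which rose with Inf, as well as in Top2a and Prc1, which fell. The Cdk1 stretch lies at chr10:69352913-69353062 (minus strand), that of Cdc20 on chr4:118437344-118437493 (minus), Ube2c on chr2:164769779-164769928 (plus), Kif11 on chr19:37376232-37376381 (plus), Ckap2l on chr2:129297213-129297362 (minus), Prc1 on chr7:80294326-80294475 (plus) and Top2a on chr11:99024190-99024339 (minus). The medians of genes with and without the motif had the same sign in each comparison below. With Inf, the median log2 difference from control was −0.29 in the 28 genes with TTTGAA within 50 bases of the start and −0.37 in the 15 without it, with 20 and 10 of them downregulated. With IL-4/13 + Inf against Inf, the medians were 0.25 and 0.23, with 14 and 5 upregulated. With IL-4/13 + Inf against IL-4/13 they were −0.17 and −0.27, with 7 of the 28 and 9 of the 15 downregulated, and with IL-4/13 against control 0.15 and 0.20, with 2 and 3 upregulated. The differences between genes with and without the motif were not tested.

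**Figure D2:**
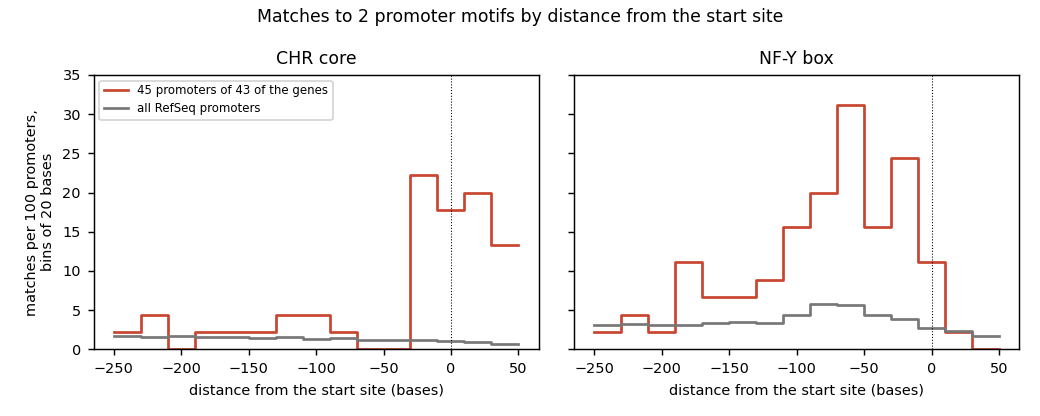
Matches per 100 promoters (vertical axis) in bins of 20 bases by distance from the start site (horizontal axis, bases), for 45 promoters of 43 of the genes and for all RefSeq promoters. CHR cores of the genes gather from 30 bases before to 50 bases after the start, at 13.3 to 22.2 matches per 100 promoters and bin, and the NF-Y boxes peak before them, at 31.1.

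Inf lowered most of the genes against control. In this comparison 37 of the 53 genes were downregulated, with 15.3% of all tested genes called lower, and 1 was upregulated, with 16.3% of all tested genes called higher. The median log2 difference of the 53 was −0.32, a level 19.9% lower, beside a median of 0.01 over all tested genes. In 47 genes every Inf library lay below every control library, which held for 24.5% of all tested genes. The falls were moderate, and none reached a log2 difference of −1. They are given by role below, with the other conditions beside them.

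Of the 11 genes of mitotic entry, 9 were downregulated by Inf. Ccna2, the cyclin that acts in S phase and G2, fell most of the 53. Its levels were 235, 257 and 242 CPM in control, 277, 266 and 277 CPM with IL-4/13, 165, 149.6 and 157 CPM with Inf, and 189, 204 and 204 CPM with both. The Inf libraries were below all others, and both the control and the IL-4/13 libraries were above those of IL-4/13 + Inf. Inf against control gave a log2 difference of −0.64 ± 0.05 (SE, adjusted p = 1.67e-12), and IL-4/13 + Inf against Inf gave 0.34 ± 0.05 (adjusted p = 2.68e-06). Mybl2, the B-MYB activator of these genes, had 31.5, 34.1 and 32.8 CPM in control, 37.6, 39.1 and 40.9 CPM with IL-4/13, 21.7, 23.5 and 21.8 CPM with Inf, and 33.6, 33.9 and 33.3 CPM with both. Inf stood alone at the bottom, whereas the libraries with both mixtures lay within the range of control. Mybl2 fell with Inf by 0.55 on the log2 scale (SE 0.07, adjusted p = 2.48e-07), rose with IL-4/13 by 0.25 (SE 0.07, adjusted p = 0.0180), and rose by 0.59 (SE 0.07, adjusted p = 3.24e-07) with both mixtures against Inf, where no other of the 53 rose as far. Foxm1, the forkhead activator of G2 genes, had 138, 143 and 149 CPM in control, 148, 147 and 151 CPM with IL-4/13, 102, 113 and 103 CPM with Inf, and 122, 126 and 126 CPM with both. With Inf it fell, with a log2 difference of −0.43 ± 0.05 (SE, adjusted p = 1.44e-08), and its level with both stayed below every control library.

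Cdk1, the kinase at the center of mitotic entry, differed less between conditions. Its levels were 143, 157 and 161 CPM in control, 165, 177 and 173 CPM with IL-4/13, 133, 138 and 143 CPM with Inf, and 151, 155 and 156 CPM with both. The highest Inf library and the lowest control library were nearly equal, and IL-4/13 lay above control. With Inf the log2 difference was −0.15 ± 0.05 (adjusted p = 0.0116), past the p threshold but inside ±0.25. The IL-4/13 + Inf level overlapped control, with a 95% interval of the log2 difference from −0.11 to 0.12. Ccnb1, the main B cyclin of mitosis, had 108, 117 and 110.4 CPM in control, 131, 135 and 124 CPM with IL-4/13, 83.8, 92.0 and 99.1 CPM with Inf, and 110.5, 111 and 112 CPM with both. It fell with Inf by 0.29 (SE 0.06, adjusted p = 7.97e-05) and rose by 0.28 (SE 0.05, adjusted p = 0.000326) with both against Inf, where its libraries lay back within the control range. Plk1, the polo-like kinase of mitotic entry and exit, fell with Inf by 0.32 (SE 0.06, adjusted p = 2.19e-05), from 98.7 ± 3.75 to 79.0 ± 3.85 CPM (SD, n = 3 each). Aurka, the kinase of centrosome maturation, fell by 0.26 (SE 0.06, adjusted p = 0.000788), from 68.9 ± 2.94 to 57.4 ± 3.86 CPM. The other members of this group that fell were Cdc25c, Melk and Ccnb2, and Cdca3 was not called.

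Among the 8 genes of the spindle checkpoint and anaphase, 4 were downregulated by Inf. Mad2l1, the checkpoint protein that holds back Cdc20, had 93.6, 105 and 91.9 CPM in control, 107, 115 and 106 CPM with IL-4/13, 63.1, 74.7 and 74.7 CPM with Inf, and 94.0, 91.6 and 86.1 CPM with both. Every Inf library was below every library of the other conditions. Mad2l1 fell by 0.45 (SE 0.06, adjusted p = 1.41e-06) with Inf and rose by 0.35 (SE 0.06, adjusted p = 0.000137) with both against Inf. Cdc20 itself fell from 167 ± 7.66 to 126 ± 3.82 CPM, a log2 difference of −0.40 ± 0.05 (SE, adjusted p = 1.60e-07). Bub1, a kinase of the checkpoint, had 67.3, 75.7 and 64.6 CPM in control, 91.7, 86.9 and 77.9 CPM with IL-4/13, 51.2, 62.7 and 62.3 CPM with Inf, and 72.7, 70.6 and 68.8 CPM with both. It was highest with IL-4/13, and its Inf libraries lay below those of control. Bub1 rose with IL-4/13 by 0.31 (SE 0.07, adjusted p = 0.00752), while its difference with Inf, −0.23 ± 0.07, did not pass the log2 threshold. Ube2c, the ubiquitin-conjugating enzyme of the anaphase-promoting complex, was not called, with a log2 difference with Inf of −0.16 ± 0.05 (adjusted p = 0.00826). Pttg1, the securin that restrains separase, had 51.4, 49.6 and 50.1 CPM in control, 54.5, 56.2 and 50.1 CPM with IL-4/13, 48.8, 50.2 and 55.8 CPM with Inf, and 57.3, 55.3 and 56.7 CPM with both. Its control and Inf libraries overlapped (adjusted p = 0.690). Bub1b and Espl1, the checkpoint kinase-like protein BUBR1 and separase, were the others downregulated, and Ttk was not called.

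Of the 7 genes of the centromere and kinetochore, the structure that binds chromosomes to microtubules, 6 were downregulated by Inf. Cenpf, a large kinetochore protein of G2 and mitosis, had 57.5, 60.7 and 56.1 CPM in control, 72.2, 62.98 and 62.7 CPM with IL-4/13, 42.0, 42.7 and 42.9 CPM with Inf, and 48.5, 54.5 and 46.6 CPM with both. The 4 conditions did not overlap. Cenpf fell with Inf, with a log2 difference of −0.45 ± 0.07 (SE, adjusted p = 2.57e-06). The 4 subunits of the NDC80 complex, which contacts the microtubule, all had lower means with Inf. Spc24 had 19.6, 17.4 and 17.3 CPM in control, 15.7, 20.2 and 15.8 CPM with IL-4/13, 14.0, 12.1 and 13.2 CPM with Inf, and 13.6, 13.3 and 13.1 CPM with both. Unlike most of the genes it stayed low with both, where it was 0.44 below control (SE 0.10, adjusted p = 0.00118) and where the Inf libraries overlapped it. Nuf2 also stayed low with both, with a log2 difference of −0.29 ± 0.08 from control (adjusted p = 0.00433). Ndc80 had 47.5 ± 3.94 CPM in control and 40.3 ± 3.91 CPM with Inf, with overlapping libraries, and its log2 difference of −0.24 ± 0.07 was not called. Cenpa, the histone variant of centromeres, fell by 0.28 (SE 0.05, adjusted p = 6.28e-05). Cenpe, a kinetochore motor, and Spc25 fell too.

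Of the 4 genes of the chromosomal passenger complex, which corrects attachments and guides cytokinesis, 3 were downregulated by Inf. In all 4, every Inf library lay below every control library, against 24.5% of all tested genes. Aurkb, its kinase, fell with Inf by 0.30 (SE 0.06, adjusted p = 0.000161), Birc5 (survivin) by 0.30 (SE 0.06, adjusted p = 0.000332) and Cdca8 (borealin) by 0.29 (SE 0.06, adjusted p = 0.000249). Incenp, the scaffold that the other subunits bind, had 113, 111.3 and 115 CPM in control, 122, 123 and 126 CPM with IL-4/13, 110.7, 106 and 104 CPM with Inf, and 139.7, 133 and 145 CPM with both. Its libraries with both were above those of all other conditions. Incenp differed from control by −0.08 ± 0.05 with Inf (adjusted p = 0.184) and by 0.13 ± 0.05 with IL-4/13 (adjusted p = 0.103), but by 0.30 ± 0.05 with both (adjusted p = 6.69e-06).

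The kinesins, motors that slide and shorten spindle microtubules, held 7 downregulated genes of 11. Kif20a, a motor of the central spindle, had 175, 184 and 187 CPM in control, 198, 190.4 and 199 CPM with IL-4/13, 131, 133 and 120.3 CPM with Inf, and 158, 158 and 154 CPM with both. The conditions did not overlap, and Kif20a fell with Inf, with a log2 difference of −0.51 ± 0.05 (SE, adjusted p = 2.20e-10). Kif15, which backs up Kif11 in spindle bipolarity, and Kif18a, which dampens chromosome movements, fell by 0.53 (SE 0.09, adjusted p = 1.21e-05) and 0.50 (SE 0.08, adjusted p = 6.60e-06). Kif11, the motor that pushes spindle poles apart, had 96.7, 102 and 102 CPM in control, 113, 116 and 116 CPM with IL-4/13, 71.0, 77.9 and 71.8 CPM with Inf, and 91.4, 91.7 and 85.6 CPM with both. It fell by 0.45 (SE 0.05, adjusted p = 2.81e-08) with Inf, again with no overlap between conditions. Kif23, a subunit of centralspindlin, fell by 0.44 (SE 0.06, adjusted p = 9.47e-08) and stayed 0.29 below control with both (SE 0.06, adjusted p = 8.09e-05). Kif4 and Kif18b were also downregulated. Kif2c, Kif14, Kif20b and Kif22 were not called in this comparison.

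Genes of spindle assembly diverged most. Of 6, Hmmr and Plk4 were downregulated by Inf and Ckap2l was upregulated. Hmmr, a spindle protein and hyaluronan-binding receptor, had 68.7, 77.5 and 74.1 CPM in control, 96.9, 95.1 and 87.8 CPM with IL-4/13, 57.5, 61.6 and 56.1 CPM with Inf, and 79.7, 79.4 and 79.3 CPM with both. IL-4/13 was above and Inf below all other libraries. Hmmr had the largest rise of the 53 with IL-4/13, a log2 difference of 0.35 ± 0.06 (SE, adjusted p = 7.44e-05), and rose by 0.44 (SE 0.06, adjusted p = 8.40e-07) with both against Inf. Ckap2l, a spindle and midbody protein also called radmis, had 77.0, 72.4 and 74.9 CPM in control, 82.7, 77.4 and 83.6 CPM with IL-4/13, 99.2, 103 and 96.2 CPM with Inf, and 93.4, 89.5 and 92.5 CPM with both. It ran opposite to most of the other genes, with Inf highest and control lowest. Ckap2l rose by 0.41 (SE 0.05, adjusted p = 1.08e-07) with Inf and by 0.30 (SE 0.05, adjusted p = 3.02e-05) with both. None of its 50-base stretches occurs in the transcript of another gene. Nusap1, a microtubule bundling protein, had 54.2, 59.8 and 59.1 CPM in control, 70.8, 67.97 and 64.2 CPM with IL-4/13, 50.9, 60.3 and 62.4 CPM with Inf, and 62.2, 61.8 and 61.7 CPM with both. Its Inf libraries spread across the control range and beyond it (adjusted p = 0.928). Tpx2, the activator of Aurora A on the spindle, had a log2 difference of −0.23 ± 0.04 with Inf (adjusted p = 5.50e-05), just inside the threshold.

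All 3 genes of cytokinesis fell with Inf. Anln (anillin), the scaffold of the contractile ring, had 259.5, 269 and 267 CPM in control, 306, 287 and 285 CPM with IL-4/13, 181, 189 and 173 CPM with Inf, and 223, 230.1 and 224 CPM with both. The conditions did not overlap. Its fall with Inf, a log2 difference of −0.55 ± 0.04 (SE, adjusted p = 8.40e-12), was next in size to that of Ccna2, and Anln rose by 0.32 (SE 0.04, adjusted p = 2.18e-06) with both against Inf. Ect2, the activator of RhoA at the division plane, fell by 0.40 (SE 0.05, adjusted p = 1.26e-07). Prc1, which bundles the central spindle, had 107, 109.7 and 105 CPM in control, 129, 121 and 121 CPM with IL-4/13, 85.2, 96.8 and 81.6 CPM with Inf, and 115, 113 and 112 CPM with both. With both mixtures Prc1 lay above all control libraries but below those of IL-4/13. It fell by 0.29 (SE 0.05, adjusted p = 8.17e-05) with Inf and rose by 0.37 (SE 0.05, adjusted p = 7.34e-06) with both against Inf.

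All 3 genes of chromosome structure fell as well. Top2a, the topoisomerase that untangles sister chromatids, had 330.5, 345 and 342 CPM in control, 415, 414 and 395 CPM with IL-4/13, 268, 288 and 249 CPM with Inf, and 327, 331 and 317 CPM with both. IL-4/13 was above and Inf below all other libraries, and control overlapped with both. Top2a fell by 0.34 (SE 0.05, adjusted p = 4.57e-07) with Inf. With IL-4/13 it was 0.27 above control (SE 0.05, adjusted p = 0.000137). Mki67, the Ki-67 antigen of the chromosome surface, had 219.8, 216 and 241 CPM in control, 278, 244 and 265 CPM with IL-4/13, 181, 196 and 143 CPM with Inf, and 190.5, 209.6 and 188 CPM with both. Inf replicate 3 was the lowest library and IL-4/13 replicate 1 the highest. Mki67 fell by 0.38 (SE 0.11, adjusted p = 0.0163) with Inf, with a larger SE than most. Cdca2, which recruits a phosphatase to chromatin at mitotic exit, fell by 0.38 (SE 0.08, adjusted p = 0.000304).

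**Figure D3:**
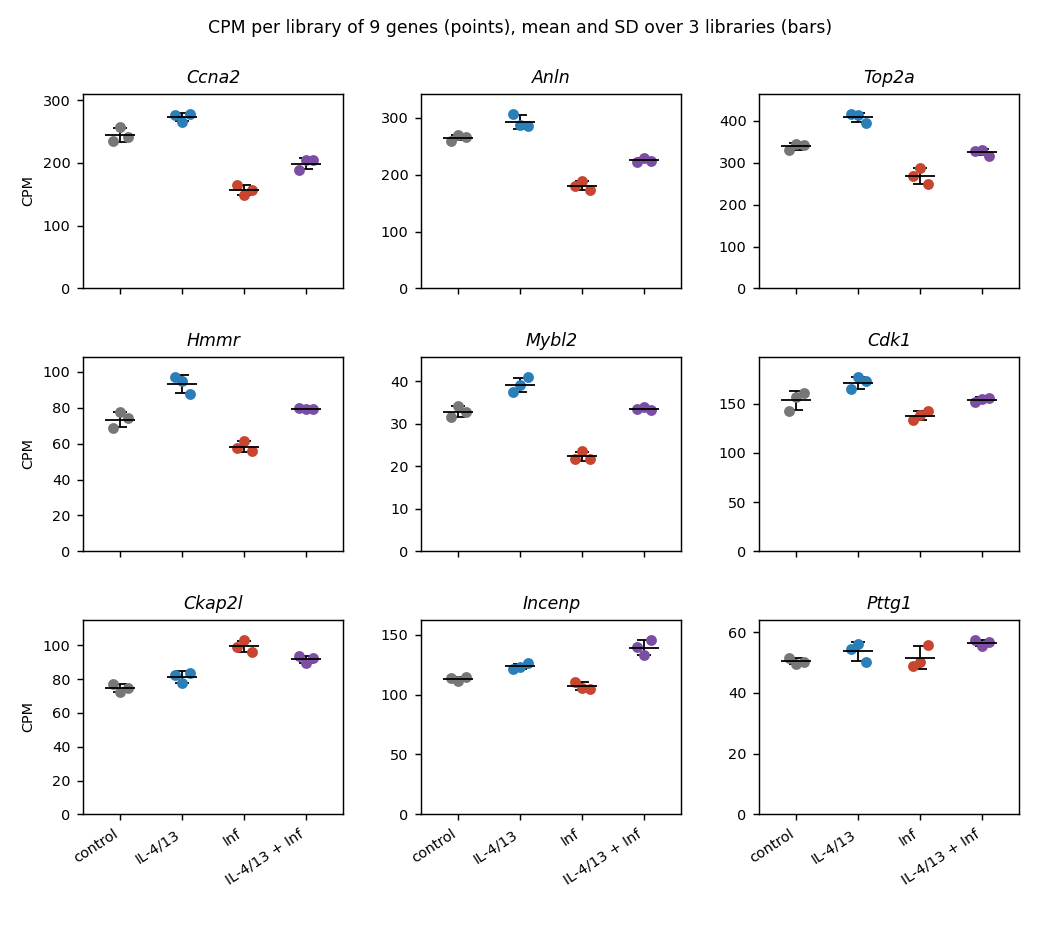
CPM in each library (points, vertical axis from 0) of 9 of the genes in the 4 conditions (horizontal axis), with the mean and SD over 3 libraries as bars. Ccna2, Anln, Top2a, Hmmr, Mybl2 and Cdk1 are lowest with Inf, Ckap2l is highest with Inf, and Incenp is highest with both.

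Of the 37 genes that Inf lowered, 27 were called in each of 12 fits that left out 1 library. The other 10 each lost the call in at least 1 of these fits. Leaving out control replicate 2 took Aurka to −0.24, Birc5 to −0.24, Ccnb1 to −0.25 and Spc25 to −0.22, and leaving out control replicate 1 took Cdca8 to −0.24 and Espl1 to −0.24. Leaving out control replicate 3 took Mki67 to −0.32, with an adjusted p of 0.0530, and Espl1 to −0.18. Leaving out Inf replicate 1 took Aurka to −0.23, Ccnb1 to −0.23 and Bub1b to −0.25, leaving out Inf replicate 2 took Aurka to −0.25 and Cenpa to −0.23, and leaving out Inf replicate 3 took Prc1 to −0.24 and Espl1 to −0.16. Without IL-4/13 + Inf replicate 1, Espl1 was at −0.25. The call on Ndc80 was gained without control replicate 1 (−0.29) and without Inf replicate 3 (−0.32), that on Tpx2 without Inf replicate 2 (−0.27), and that on Bub1 without control replicate 3 (−0.28), Inf replicate 2 (−0.28) or Inf replicate 3 (−0.27).

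Other genes of the cell cycle moved in the same comparison as follows. Of 70 further mitotic genes, 35 were downregulated by Inf and 0 upregulated (edgeR, with 1 higher at an unadjusted p below 0.05, and 0 upregulated by DESeq2), at a median log2 difference of −0.26. The largest falls were those of Lmnb1, the B-type lamin of the nuclear envelope (−0.65 ± 0.05), and Racgap1, the partner of Kif23 (−0.64 ± 0.04). Of 46 DNA replication genes, 34 were downregulated and 1 upregulated, at a median of −0.32. Mcm2 and Mcm6, subunits of the replicative helicase, fell by 0.58 (SE 0.04) each, and Tyms, thymidylate synthase, rose by 0.65 (SE 0.06). Of 18 E2F and DREAM factors, 7 were downregulated and 2 upregulated. The repressor E2f8 fell by 0.80 (SE 0.08), and the pocket proteins Rbl2 and Rb1 rose by 0.43 (SE 0.07) and 0.35 (SE 0.09). Of 15 tested CDK inhibitors and other brakes of the cell cycle, 7 were upregulated and 2 downregulated. Gadd45b rose by 1.16 (SE 0.07), Ccng2 by 1.10 (SE 0.06) and Cdkn2b, the INK4B inhibitor, by 0.77 (SE 0.05). The 2 that fell were Gadd45g (−1.72 ± 0.14) and Wee1 (−0.27 ± 0.08). Of the 16 subunits of the anaphase-promoting complex, the ubiquitin ligase that ends mitosis, 0 were called (edgeR, with 3 higher and 5 lower at an unadjusted p below 0.05, and 0 by DESeq2), at a median of −0.06.

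**Figure D4:**
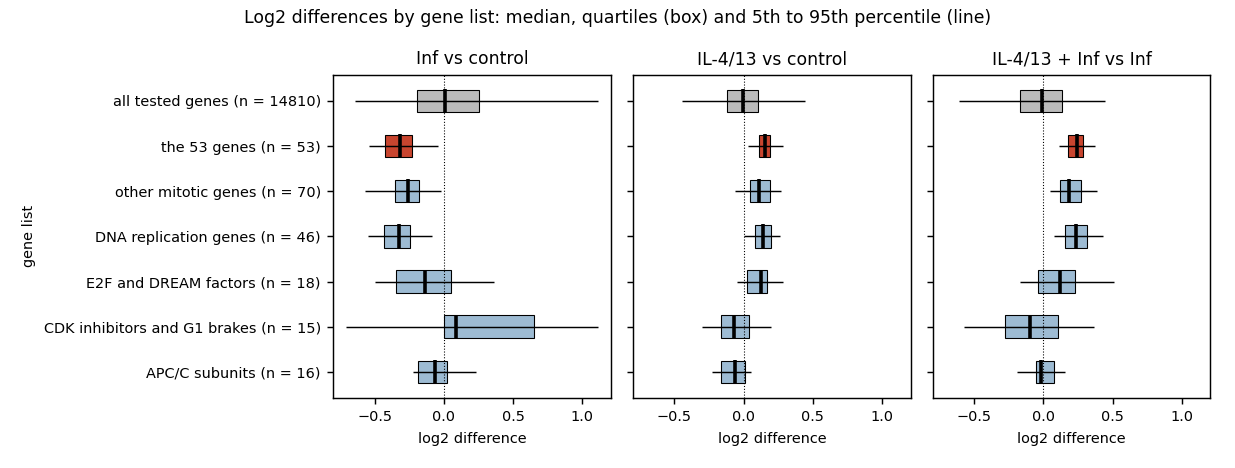
Log2 differences (horizontal axis) of the 53 genes, of 5 other cell cycle lists and of all 14810 tested genes in 3 comparisons, as median, quartiles and the 5th to 95th percentile. The median of the 53 genes is −0.32 with Inf, 0.15 with IL-4/13 and 0.24 with IL-4/13 added to Inf, and the other mitotic and DNA replication genes lie close to it.

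IL-4/13 alone moved the genes the other way, by less. Against control, 5 genes were upregulated, with 2.78% of all tested genes called higher, and 0 were downregulated (edgeR, with 0 lower at an unadjusted p below 0.05, and 0 by DESeq2), with 2.57% of all tested genes called lower. The 5 were Hmmr, Bub1, Kif14, Top2a and Mybl2. Kif14, which acts with Prc1 in the midbody, had 23.0, 24.5 and 24.1 CPM in control, 30.4, 28.1 and 30.0 CPM with IL-4/13, 24.0, 22.4 and 18.0 CPM with Inf, and 24.5, 26.2 and 25.1 CPM with both. Its IL-4/13 libraries were above all others. Kif14 rose by 0.31 (SE 0.09, adjusted p = 0.0238). The log2 difference was above 0 for 52 of the 53 genes, against 49.5% of all tested genes, with a median of 0.15, a level 11.1% higher. In 34 genes every IL-4/13 library lay above every control library, which held for 13.4% of all tested genes. At an adjusted p below 0.05 with no threshold on size, 19 genes were higher, against 4.50%. Among these, Ccnb1 differed by 0.22 ± 0.05, Prc1 by 0.21 ± 0.05, Kif11 by 0.19 ± 0.05, Ccna2 by 0.16 ± 0.05, Cdk1 by 0.16 ± 0.05 and Anln by 0.14 ± 0.04, all inside the threshold.

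The count of 5 depended on single libraries. It was 1 without control replicate 1, 10 without control replicate 2, 2 without control replicate 3 and 3 without IL-4/13 replicate 1. Hmmr was called in each of the 12 fits. Bub1 was at 0.29 without control replicate 1, 0.26 without control replicate 3 and 0.25 without IL-4/13 replicate 1, with adjusted p of 0.0530, 0.0557 and 0.0761. Top2a was at 0.25 without control replicate 1. Mybl2 lost its call in 6 of the 12 fits and Kif14 in 4. Ccnb1 gained one without control replicate 2 (0.25). Of the other lists, 5 mitotic genes and 6 DNA replication genes were upregulated, among them Depdc1a (0.36 ± 0.10) and Knl1, a scaffold of the kinetochore (0.33 ± 0.07), and 1 mitotic gene, Cenpm, was downregulated (−0.39 ± 0.11).

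IL-4/13 added to Inf raised the genes from the Inf level. Against Inf, 25 of the 53 were upregulated with both mixtures, with 7.55% of all tested genes called higher, and 0 were downregulated (edgeR, with 1 lower at an unadjusted p below 0.05, and 0 by DESeq2), with 7.00% of all tested genes called lower. The median log2 difference was 0.24, a level 18.1% higher, beside −0.01 over all tested genes. In 44 genes every library with both lay above every Inf library, against 18.3% of all tested genes. The largest rises were those of Mybl2 (0.59), Hmmr (0.44), Incenp (0.38), Prc1 (0.37) and Mad2l1 (0.35). All 3 genes of cytokinesis rose, 5 of 11 of mitotic entry, 5 of 8 of the checkpoint, 5 of 11 kinesins, 2 of 3 of chromosome structure and 1 of 7 of the kinetochore. Cdk1 differed by 0.16 ± 0.05 and Foxm1 by 0.23 ± 0.05, inside the threshold. Ckap2l had the only negative difference, −0.12 ± 0.05 (adjusted p = 0.104). Of the other lists, 21 of 70 mitotic and 21 of 46 DNA replication genes were upregulated, with Bora, the activator of Aurora A, at 0.54 ± 0.08 and Rrm2, a subunit of ribonucleotide reductase, at 0.46 ± 0.05. None of the 16 subunits of the anaphase-promoting complex was called (edgeR, with 3 higher and 3 lower at an unadjusted p below 0.05, and 0 by DESeq2).

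Of these 25 calls, 13 were made in each of the 12 fits that left out 1 library, and the count ranged from 18 without Inf replicate 1 to 28 without Inf replicate 2. Without Inf replicate 1, Ccnb1 was at 0.22, Cdc20 at 0.24, Plk1 at 0.25, Plk4 at 0.23, Spc25 at 0.21, Kif18b at 0.25, Cdca2 at 0.18 and Bub1 at 0.18. Without Inf replicate 3, Top2a was at 0.23, Kif20b at 0.24 and Espl1 at 0.21. The other losses followed from leaving out Inf replicate 2 (Cdc25c 0.24 and Spc25 0.24) or a library with both mixtures (Cdc25c, Plk1, Bub1, Cdca2, Kif18b, Kif20b, Plk4, Cdc20 and Spc25, between 0.21 and 0.28). Foxm1 gained a call without Inf replicate 2 (0.28), and Cenpf without IL-4/13 + Inf replicate 1 (0.25) or 3 (0.27).

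Inf added to IL-4/13 lowered the genes again, in libraries that the comparison of Inf with control does not share. With both against IL-4/13 alone, 20 of the 53 were downregulated, with 11.0% of all tested genes called lower, and 0 were upregulated (edgeR, with 2 higher at an unadjusted p below 0.05, and 0 by DESeq2), with 13.3% of all tested genes called higher. The median log2 difference was −0.22, a level 14.1% lower. In 44 genes the groups were apart with both below IL-4/13, against 23.9% of all tested genes. The largest falls were those of Kif18a (−0.47 ± 0.08), Ccna2 (−0.46 ± 0.05), Mki67 (−0.42 ± 0.11), Nuf2 (−0.42 ± 0.08) and Cenpf (−0.41 ± 0.07). Of the 20, 19 were also downregulated by Inf against control, which is 95% of the 20 and 51.4% of the 37 called there, and the other was Bub1. Over all tested genes, 1244 were lowered in both comparisons, of 1627 lowered here. They were 54.9% of all genes lowered by Inf against control. Across the 53 genes, the log2 differences of the 2 comparisons had the same sign in 51 and a Pearson r of 0.81, as a description, since genes are not independent replicates. Hmmr (−0.23 ± 0.06), Mybl2 (−0.22 ± 0.07) and Cdk1 (−0.15 ± 0.05) were lower inside the threshold, and Ckap2l (0.18 ± 0.05) and Incenp (0.17 ± 0.05) were higher inside it.

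In the fits leaving out 1 library, 14 of the 20 kept the call each time. Bub1 was at −0.22 without IL-4/13 replicate 1, Mad2l1 at −0.23 and Spc24 at −0.24 without IL-4/13 replicate 2, Foxm1 at −0.25 without IL-4/13 replicate 3 and at −0.24 without IL-4/13 + Inf replicate 1, Melk at −0.24 without IL-4/13 + Inf replicate 2, and Mad2l1 at −0.24 and Kif4 at −0.24 without IL-4/13 + Inf replicate 3. Hmmr gained a call without IL-4/13 replicate 3 (−0.27). The comparisons of IL-4/13 with control and of both with Inf also share no library. Of the 5 genes upregulated in the first, 4 were upregulated in the second, which is 80% of the 5 and 16% of the 25, and Kif14 was the other. Over all tested genes, 243 of the 412 called higher in the first were called higher in the second, where 1118 were called higher. Across the 53 genes, the log2 differences of this pair had the same sign in 51 and a Pearson r of 0.40, as a description.

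**Figure D5:**
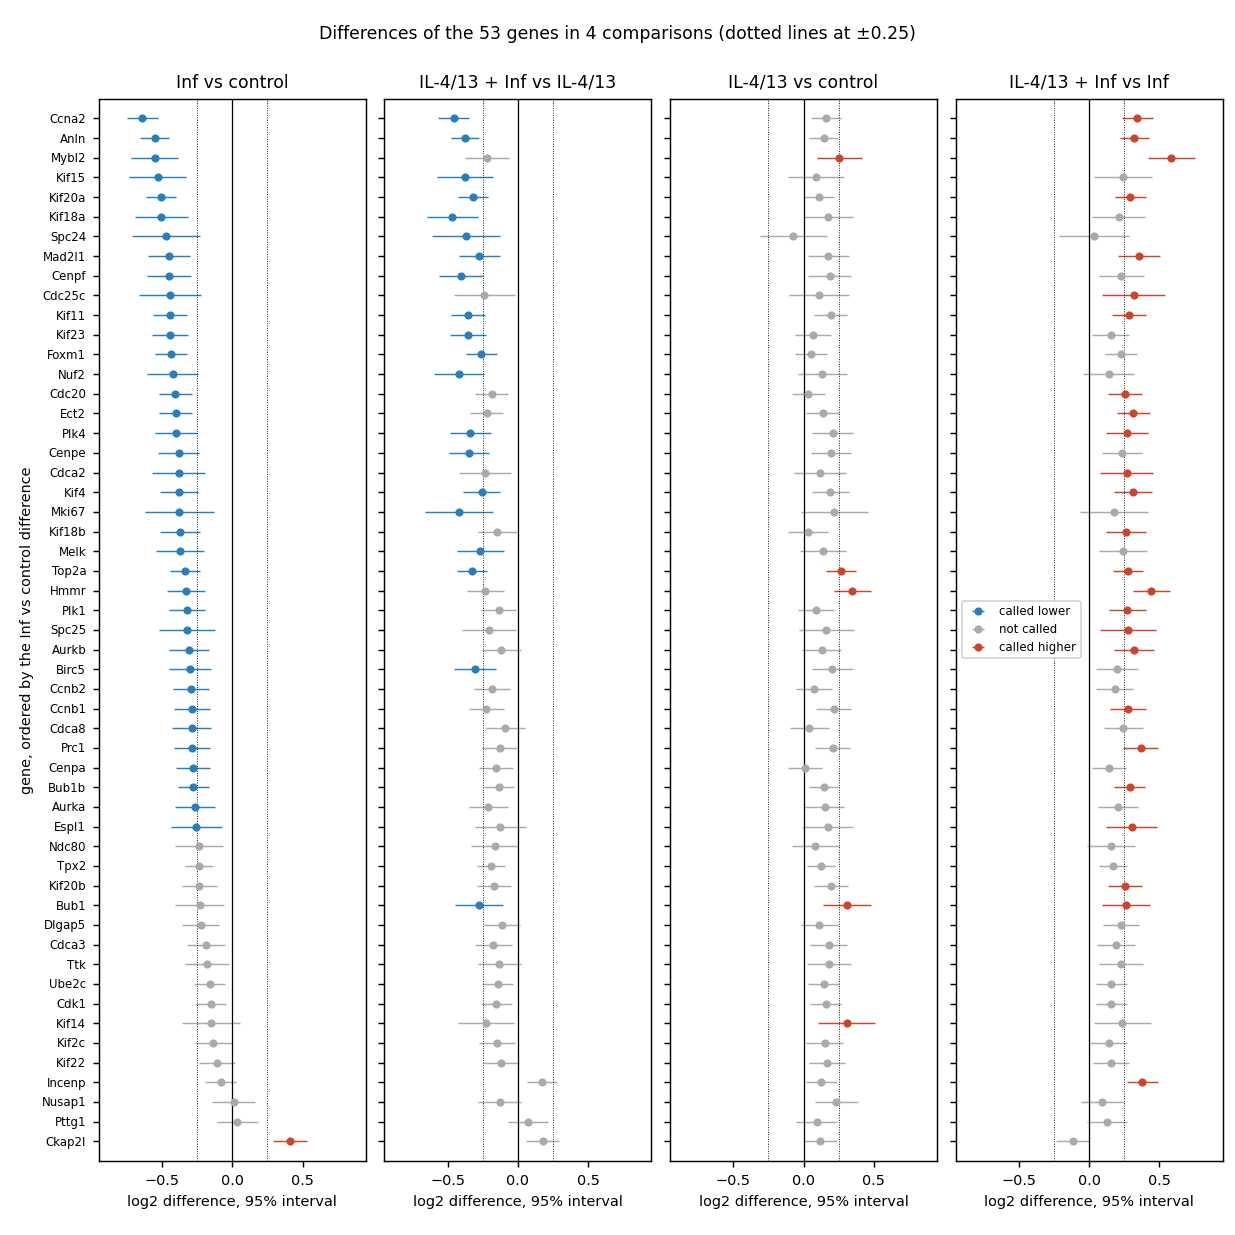
Log2 differences of the 53 genes (points, horizontal axis) with 95% intervals in 4 comparisons, in the order of the Inf against control difference, with dotted lines at the 0.25 threshold. Called falls fill the left panels, with 37 for Inf against control and 20 for Inf added to IL-4/13, and called rises the right panels, with 5 for IL-4/13 alone and 25 for IL-4/13 added to Inf.

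With both mixtures the median of the genes lay near control, with a log2 difference of −0.07 beside −0.000842 over all tested genes. Against control 6 (11.3%) were downregulated, with 11.5% of all tested genes called lower. The share called lower was thus about that of all tested genes. Of the 53, 2 (3.77%) were upregulated, with 13.4% called higher. In 20 genes every library with both lay below every control library, against 22.8% of all tested genes, and in 6 above, against 23.4%. The libraries of the other 27 overlapped with those of control, and overlap was not shown to be particular to these genes. The 6 downregulated genes were Spc24 (−0.44 ± 0.10), Ccna2 (−0.30 ± 0.05), Kif18a (−0.29 ± 0.08), Kif23 (−0.29 ± 0.06), Kif15 (−0.29 ± 0.09) and Nuf2 (−0.29 ± 0.08). The 2 upregulated genes were Incenp and Ckap2l. Anln was lower by less than the threshold (−0.23 ± 0.04). For several genes the interval excluded a change of the size seen with Inf alone. It ran from −0.14 to 0.11 for Ccnb1, from −0.10 to 0.12 for Bub1b and from −0.13 to 0.20 for Mybl2. Leaving out control replicate 2 took Kif15 to −0.20 and Nuf2 to −0.24, with 4 genes then called lower, and leaving out IL-4/13 + Inf replicate 3 took Nuf2 to −0.22.

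The response to IL-4/13 with Inf was then set against the response without it, as the interaction of the same fit. Its median over the 53 genes was 0.10 on the log2 scale, with 45 values above 0 and 14 of them past an unadjusted p of 0.05. Over all tested genes the median was −7.29e-05, with quartiles of −0.14 and 0.12. The shares of all tested genes above 0 and past that p are not given here, so these 2 counts describe the 53 genes only. Only Incenp passed both thresholds, and 0 genes passed them in the other direction (edgeR, with 1 lower at an unadjusted p below 0.05, and 0 by DESeq2), with 1.52% of all tested genes called higher and 1.59% called lower. The interaction was 0.25 ± 0.07 for Incenp (adjusted p = 0.0293), 0.33 ± 0.10 for Mybl2 (adjusted p = 0.0649) and −0.23 ± 0.07 for Ckap2l (adjusted p = 0.0769). The interval of the interaction was −0.16 to 0.16 for Cdk1 and −0.14 to 0.16 for Top2a, on the log2 scale. The call on Incenp was lost in 8 of the 12 fits that left out 1 library, where its value was 0.22 to 0.25. Mybl2 passed without Inf replicate 2 (0.37, adjusted p = 0.0487), and Ckap2l without Inf replicate 3 (−0.25, adjusted p = 0.0329).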

How the data were processed

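The authors aligned the reads and counted them per gene before deposition, and the deposited table holds raw counts. The submitters' processing notes name STAR, featureCounts and GRCm39, while versions and the strand setting are not given in the sources used here. The libraries were made with a stranded kit. Genes with at least 10 counts in enough libraries and 15 in total (filterByExpr, 14810 genes) were fitted in a single edgeR 4.0.16 quasi-likelihood model over all 12 libraries with TMM scaling, under R 4.3.3 and limma 3.58.1. The study's methods name DESeq2, which was run as an alternative (1.42.0). Thresholds were an adjusted p of 0.05 and a log2 difference of 0.25. The 95% intervals used a t distribution with 8 degrees of freedom. Lengths and shared 50-base stretches came from GENCODE transcripts of GRCm38, and promoters from RefSeq. The members, the gene lists and the motifs were chosen with earlier results of these data known. A fixed set of 24 genes was named, with the 5 largest calls in each direction per comparison and up to 3 per list. Other named genes, Pttg1, Nusap1, Cdca2 and Ect2 among them, were chosen after their values were seen. Alternatives were another scaling, other filters and thresholds, DESeq2, only the compared libraries, a replicate block and 12 fits that each left out 1 library.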

Additional observations from a re-analysis of the deposited data

Results flagged for a closer look

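The response of Incenp to IL-4/13 differed with and without Inf by a test of the difference itself, the interaction term of the edgeR fit, with a log2 value of 0.25 (adjusted p = 0.0293). Without Inf, IL-4/13 took its mean from 113 ± 1.69 to 124 ± 2.30 CPM, and with Inf from 107 ± 3.31 to 139 ± 6.30 CPM (SD, n = 3 each). The 3 libraries with both mixtures were above the other 9. No other of the 53 genes passed both thresholds in this test, and the call was lost in 8 of the 12 fits that left out 1 library.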

How the results depend on the processing

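The directions of the median differences of the 53 genes were the same with DESeq2, with its size factors and with library size alone. Another scaling moved the median of all tested genes by less than 0.04. The counts of calls depended on the log2 threshold, since many values lay near it. With a threshold of 0.5, 6 genes were lower with Inf and 0 higher, 0 were higher with IL-4/13, 0 were higher and 0 lower with both against control, 1 was higher with both against Inf, 0 were lower with both against IL-4/13, and 0 passed the interaction. With a threshold of 1, all of these counts were 0. With no threshold on size, 19 genes were higher with IL-4/13, 13 lower with both against control, 41 higher with both against Inf, and 38 lower and 2 higher with both against IL-4/13. For the 19, the share of all tested genes was 4.50%. Shares for the other counts at these thresholds are not given here, so those counts describe the 53 genes only. At an adjusted p below 0.01, 3 genes were higher with IL-4/13 and 0 passed the interaction. The interaction count was also 0 with library size alone and with a mean of at least 50 counts, where 1 gene (Ckap2l) passed in the other direction. Of the 37 genes lower with Inf, 35 kept the call in every alternative setting with all libraries. So did 19 of the 25 higher with both against Inf. With a mean of at least 50 counts, Aurka and Espl1 lost the first call. Bub1, Cdc20, Cdca2, Kif18b, Kif20b and Plk4 lost the second, Cdc20 also with library size alone. With library size alone, Bub1, Ndc80 and Tpx2 gained the first call. With library size alone the summed level was 5783 CPM with IL-4/13 and 4810 CPM with both.

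Leaving out each library in turn gave 33 to 38 lower and 1 higher with Inf, 1 to 10 higher with IL-4/13, 4 to 7 lower and 2 higher with both against control, 18 to 28 higher with both against Inf, 18 to 25 lower with both against IL-4/13, and 0 to 1 in each direction for the interaction. With the replicate block the counts were 37 lower with Inf, 5 higher with IL-4/13, 25 higher with both against Inf and 20 lower with both against IL-4/13, as without it, and it changed no other count of calls among the 53. The labels do not say that a number pairs libraries. Correlations of the deviations of same-numbered libraries ran from −0.146 to 0.0543 over 18 pairs, with 0 above 0.1. With 3 libraries a condition, a difference that missed the threshold is not shown to be absent, and the counts of 5 genes that share stretches with other transcripts are uncertain.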
